A study of Homo sapiens with 8 samples.

Results

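Constitutive TSS-proximal regions whose accessibility score was higher after 72 h of TGFβ1 were described here. Of 126658 regions formed by merging the peaks of 4 lists, 79275 held a peak in every list, and 31968 of these lay within 3 kb of a transcription start site (TSS) in GENCODE. Among those, 3029 regions (9.48%) were selected because the log2 ratio of their summed AUC at 72 h to that in solvent, minus the median ratio of all 31968 regions, was 0.75 or more. The AUC is the area under the significance curve that the peak caller gives each peak, and the subtraction of the median is called centring below. The median ratio itself was 0.25 at 72 h, so that the threshold corresponds to a 2.00-fold AUC. Because the 72 h and solvent lists chose these regions, their values at 72 h are a description and no test was applied to them.

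The data come from ATAC-seq, in which a transposase inserts adapters into DNA that is not covered by nucleosomes, on wild-type MCF10A cells, an established, immortalised and non-tumorigenic human mammary epithelial line. The cells were grown with horse serum, EGF, hydrocortisone, cholera toxin and insulin in all groups, and received either solvent or 5 ng/ml TGFβ1 for 6, 24 or 72 h. The solvent group has time 0 in the labels, but the study describes its controls elsewhere as kept in solvent for 72 h. Each group had 2 replicates (8 libraries), but each peak list was called on both replicates together, so that no difference between the lists has a replicate check here. The lists hold no read totals and no p-value could be given from them, and the per-replicate reads that the study tested were not used here.

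TGFβ1 binds a receptor complex of serine/threonine kinases, which phosphorylate SMAD proteins that enter the nucleus and act on DNA together with partners such as AP-1. In mammary epithelial cells this drives an epithelial-mesenchymal transition (EMT), in which cells lose junctions and gain matrix, contractile and migratory gene products. Promoters of widely used genes are often rich in CpG and open in every cell, whereas open sites further from a TSS are often bound by factors that depend on cell type and signal.

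The lists were first checked for the labelled cell type. All 8 mammary basal epithelial marker genes (KRT5, KRT14, KRT17, TP63, LAMB3, ITGA6, EGFR and CDH1) had a peak within 3 kb of a TSS in each list. Markers of other cell types had peaks too. In solvent these were 2 of 4 luminal markers (ELF5 and ESR1, not LALBA and CSN2), all 4 fibroblast markers (COL1A1, COL1A2, PDGFRB and DCN), 1 of 3 leukocyte markers (PTPRC) and 2 of 3 endothelial markers (PECAM1 and VWF), so that the presence of a peak near a TSS did not separate cell types. In these bulk libraries, more cells with an open site and a more open site in each cell cannot be told apart.

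To show the DNA behind the values below, 7 stretches are printed around motif matches that lay within 100 bp of the solvent summit of a selected region. They were chosen after the values had been seen, for genes of the matrix, the contractile apparatus and the TGFβ response, and a match is a description of the letters and no evidence of binding. Sequences are from GRCh38 (hg38), 5′ to 3′ on the strand of the named gene, with the match in capitals. The first 5 hold the AP-1 motif, TGACTCA or TGAGTCA, which was present within 100 bp of the solvent summit in 20.2% of all 31968 regions. The TGFBI stretch (chr5:136053804-136053870, plus strand) lay within the gene outside exons, 106 bp before an annotated internal start. The PDLIM7 stretch (chr5:177494411-177494477, minus strand) was intronic, and the COL7A1 stretch (chr3:48566245-48566311, minus strand) overlapped an exon without UTR. The LTBP1 stretch (chr2:33242971-33243037, plus strand) lay in an intron, and the RUNX1 stretch (chr21:35048843-35048909, minus strand) across RUNX1 exons, with 10 bases of UTR.

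TGFBI AP-1: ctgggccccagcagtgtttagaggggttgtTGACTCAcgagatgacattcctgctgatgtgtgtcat

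PDLIM7 AP-1: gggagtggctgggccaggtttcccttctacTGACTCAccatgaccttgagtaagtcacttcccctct

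COL7A1 AP-1: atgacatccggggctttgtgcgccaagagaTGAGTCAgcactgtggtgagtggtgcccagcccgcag

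LTBP1 AP-1: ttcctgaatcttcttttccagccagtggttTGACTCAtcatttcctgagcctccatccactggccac

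RUNX1 AP-1: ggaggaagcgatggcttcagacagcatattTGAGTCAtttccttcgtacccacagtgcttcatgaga

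The other 2 stretches hold motifs that were rare among the 31968 regions. LAMA3 (chr18:23871463-23871530, plus strand, overlapping an exon) had the paired SMAD motif GTCTAGAC, which together with GTCTGGAC was found in 0.754% of regions. FN1 (chr2:215436214-215436281, minus strand) had the cyclic AMP response motif TGACGTCA 175 bp before its TSS, in an exon of the divergent transcript FN1-DT, and 1.24% of regions held this motif.

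LAMA3 SMAD pair: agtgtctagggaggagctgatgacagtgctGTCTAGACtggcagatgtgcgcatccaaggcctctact

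FN1 CRE: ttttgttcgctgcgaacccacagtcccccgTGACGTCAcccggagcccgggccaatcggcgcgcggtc

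The selected regions were weak in solvent. In the order solvent, 6 h, 24 h and 72 h, which is kept below wherever 4 AUCs are given, their median AUC was 388, 904, 1123 and 1142. The other 28939 regions had medians of 1472, 2034, 1944 and 1783. The selected regions thus started lower and remained below the others by the median at each time. In solvent, 51.9% of selected regions had an AUC under 400, against 12.4% of the others, where 200 is the smallest AUC the lists hold. When all 31968 regions were put into 4 equal groups by solvent AUC, 26.4% of the lowest group were selected, and 9.76%, 1.60% and 0.188% of the next ones. A low solvent AUC enters the ratio that chose the regions, and its part in the result was not tested.

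Peaks were also wider. The summed peak length per selected region had a median of 268 bp in solvent and 476 bp at 72 h, and 3020 of 3029 (99.7%) were wider at 72 h, compared with 67.8% of the others. The AUC grows with both the width and the height of a peak. Per base of peak, the median AUC of selected regions was 1.44, 2.23, 2.52 and 2.51, and the value was higher at 72 h than in solvent in 2814 regions (92.9%), compared with 76.9% of the others. After centring, 2656 (87.7%) were above the median of all 31968 regions on this scale. The −log10 p at the strongest summit had a median of 6.79 in solvent and 9.29 at 72 h, and was higher at 72 h in 3021 regions (99.7%), compared with 77.4% of the others. However, only 53 regions reached a centred log2 ratio of 0.75 on the −log10 p scale, and 1246 on the scale of AUC per base.

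With respect to position, "promoter" holds for these regions only in the sense of the 3 kb window. A TSS lay inside 673 of them (22.2%, 95% Wilson interval 20.8 to 23.7), against 55.5% of the others (55.0 to 56.1). The window was applied to the merged region, and the solvent summit lay up to 8180 bp from the nearest TSS. It lay over 1000 bp from any TSS in 1773 (58.5%) and within 100 bp in 355 (11.7%). It lay in an intron in 64.3% and in an exon in 17.1%, compared with 45.1% and 31.8% of the others. Of all regions with a summit within 100 bp of a TSS, 3.18% were selected, a share that was 7.97% from there to 500 bp, 11.2% up to 1000 bp and 16.3% beyond. Among 47307 constitutive regions further than 3 kb from a TSS, 22% reached the same threshold. Intervals for shares cover counting error only.

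The distance and the solvent AUC went together, the median solvent AUC being 2456 for summits within 100 bp of a TSS and 710 beyond 1000 bp. Within the lowest of the 4 groups by solvent AUC, 234 of 1114 regions at 0 to 100 bp (21.0%) and 1236 of 4169 over 1000 bp (29.6%) were selected. In the next groups the shares at these distances were 5.57% and 12.4%, 0.479% and 3.04%, and 0.0850% and 0.915%, so that the share was higher beyond 1000 bp in each group. The bases around the summits differed as well. The median GC content of the windows of 100 bp on either side was 47.8% in selected regions and 59.2% in the others, and the median ratio of observed to expected CpG was 0.213 and 0.494. For summits within 100 bp of a TSS these ratios were 0.279 and 0.846.

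The regions were assigned to 2690 genes, of which 1587 are protein-coding, and 280 genes had 2 or more. A protein-coding TSS lay within 3 kb of 61.2% of the selected regions and of 79.1% of the others. Long non-coding RNA genes accounted for 23.5% and 13.6%, and processed pseudogenes for 6.999% and 2.83%. Values at the threshold were continuous. Just inside it lay regions of LOXL2 (solvent AUC 1590, 72 h AUC 3174), EEF1DP5 (248 and 496) and ENSG00000287914 (581 and 1159). Just outside it lay regions of NDRG2 (3501 and 6987), SH3PXD2B (424 and 846) and ENSG00000248346 (548 and 1094).

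The course before 72 h was then followed. The 6 h and 24 h ratios use the same solvent list as the rule, so they are set side by side and support nothing on their own. Over all 31968 regions, 1457 (4.56%) reached a centred log2 ratio of 0.75 at 6 h and 2733 (8.55%) at 24 h. Of the selected regions, 1164 (38.4%) reached it at 6 h and 2221 (73.3%) at 24 h. Their centred log2 ratios had medians of 0.64 and 0.97 at these times and of 1.09 at 72 h. At 6 h, 96.7% already stood above the median of all regions, and at 24 h 99.4% did.

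By the time at which the threshold was first reached, 1164 regions belonged to 6 h, 1102 (36.4%) to 24 h and 763 (25.2%) to 72 h alone. The first class had median centred log2 ratios of 1.00, 1.36 and 1.42 at 6, 24 and 72 h, and 1119 of its regions were also past the threshold at 24 h. Its medians were the largest of the classes, which at 6 h follows from the split itself, and all these ratios share the solvent list. The order of the other classes at 24 h likewise follows from the split. The class of 24 h had medians of 0.53, 0.95 and 1.05. The class of 72 h alone had medians of 0.37, 0.61 and 0.87, and thus stood above 0 at 6 h as well. The median solvent AUC of the 3 classes was 340, 417 and 459.

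The lists of 6 h and 24 h also entered the selection, through the merging of peaks and the requirement of a peak in every list. Selected and other regions alike met this requirement, and its part in the values below was not tested. The ratio of 24 h to 6 h uses neither the solvent list nor the 72 h list. Centred on its own median over all regions, its log2 value had a median of 0.34 in the selected regions and -0.01 in the others, and it was above 0 in 90.3% and 45.8%. Without centring the medians were 0.29 and -0.07, so that the AUC of the selected regions was mostly higher at 24 h than at 6 h while that of the others was mostly lower.

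The region with the largest ratio belonged to TGFBI, which encodes an extracellular matrix protein named for its induction by TGFβ. TGFBI also had, with TLN2, the most selected regions of any gene, 5 of its 7. The gene runs from 136028988 to 136063818 on the plus strand of chromosome 5. The region over its 3′ end (chr5:136063021-136068165) had AUCs of 615, 6483, 12679 and 14387, a centred log2 ratio of 4.30. Its solvent peak was 394 bp long, with the summit 5870 bp from the nearest TSS. This region thus met the 3 kb window only through peaks of treated cells, that of 72 h being 5145 bp long. A 7463 bp region within the gene (chr5:136035866-136043328) had AUCs of 2605, 7154, 18996 and 19680. The region of the AP-1 stretch printed above (chr5:136050812-136054479) had 2590, 6166, 9965 and 11599.

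In these 3 regions each treated list exceeded solvent, and the step from 6 to 24 h was larger than that from 24 to 72 h. The remaining pair came later. The region at chr5:136055559-136059183 had AUCs of 1861, 2490, 3511 and 4442, and that at chr5:136061132-136062893 had 483, 656, 1354 and 2009, and neither stood above the median of all regions at 6 h after centring. The region over the start of the gene (chr5:136028067-136030074) was not selected, with 4481, 6225, 6871 and 6993. Per base of peak, 4 of the 5 regions had a centred log2 ratio below 0 (-0.13, -0.08, -1.02 and -1.04) and did not stand above the median on this scale, while that over the 3′ end had 0.66. For example, the summed peak length of the 7463 bp region was 1014 bp in solvent and 7409 bp at 72 h.

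The 20 protein-coding genes with the largest ratios had centred log2 values from 2.49 to 4.30. All 20 regions were past the threshold at 6 h and 24 h, 19 had a solvent AUC under 400, and 6 had their 72 h summit within 1 kb of the TSS. HECW1, a ubiquitin ligase gene, had AUCs of 201.1, 3126, 4106 and 4111. UGGT2, which encodes a glucosyltransferase of glycoprotein quality control in the endoplasmic reticulum, had 377, 2819, 4545 and 4744. ACTBL2, an actin-like gene, had 236, 2000, 2607 and 2665 over its TSS. In these 3 genes the 6 h value made up most of the difference.

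SAP30BP had AUCs of 228, 1150, 2120 and 2225, the summit lying 71 bp after the TSS. FMN2, which encodes a formin that nucleates actin filaments, had 220, 969.5, 1558 and 1975. FBXL2, a subunit gene of a ubiquitin ligase, had 213, 636, 909 and 1606. ADAMTS6, a secreted metalloprotease gene, had 317, 1356, 2017 and 2156, and CLDN14, a tight-junction gene, had 354, 2245, 2551 and 2367, its highest value being that of 24 h. MARCKSL1, which encodes a regulator of actin, had 203, 974, 1291 and 1354. The others of the 20 were UBE2R2, FRMD5, MARCOL, ZP4, MGLL, FOLR3, CNTNAP2, BMPER, DUSP14 and RIN3, with 72 h AUCs between 1545 (BMPER) and 2753 (ZP4). ZP4 encodes an egg-coat protein and CNTNAP2 a neuronal adhesion protein, and assignment by the nearest TSS does not show that a gene is expressed.

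The selected regions that were strongest in solvent lay at other genes. A 20189 bp region on chromosome 1 (chr1:209604633-209624821) had AUCs of 20917, 57526, 66530 and 75561, the largest value of any of the 31968 regions at 72 h. Its summit was nearest to CAMK1G, but starts of LAMB3, the laminin β3 chain of the epithelial basement membrane, lie within its window too. It held 3 peaks in solvent and 1 at 72 h, and the peak length was 9255 and 19900 bp. A region by KRT86 and KRT7, keratin genes, had 7488, 18461, 16618 and 23455. GALK1 (5605, 13380, 13781 and 11969) and FLOT1 (4856, 7039, 8404 and 11300) followed, the latter also within 3 kb of IER3, and then LINC02989 (4378, 8212, 9067 and 9553). The region of FLOT1 had a centred log2 ratio per base of peak of -0.46, with a peak length of 1576 bp in solvent and 4466 bp at 72 h. In the region of GALK1 the 72 h value was below those of 6 and 24 h.

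Genes of the TGFβ pathway and its feedback had 18 selected of 115 regions (15.7%), with a median centred log2 ratio over the 115 of 0.05, beside 9.48% and 0 over all 31968. Of the 18, 7 reached the threshold at 6 h, 7 at 24 h and 4 at 72 h alone. SMAD7, which encodes the inhibitory SMAD of the feedback loop, had AUCs of 1196, 3240, 3717 and 3835 at its TSS. TGFBR1, the type I receptor gene, had 376, 959, 1503 and 1502, and SMAD3, a receptor-activated SMAD gene, had 2334, 4840, 5144 and 5064. In all 3 the AUC at 6 h was over that of solvent, and the values of 24 and 72 h lay closer to each other than to that of 6 h.

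In the same list, LTBP1 and LTBP4 encode proteins that hold latent TGFβ in the matrix. LTBP1 had AUCs of 699, 1591, 2113 and 2134 in the region of the stretch printed above, and 733, 2060, 2209 and 1952 at another of its starts. LTBP4 had 3 selected regions, with centred log2 ratios at 72 h of 0.75, 0.86 and 1.92. ACVR1, a type I receptor gene of the family, had 391, 1536, 1803 and 1438, and TGFBR3, the gene of the co-receptor betaglycan, had 288, 717, 999 and 814. Both were highest at 24 h. SKI, which encodes a repressor of SMAD activity, had 377, 771, 1124 and 1320.

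INHBA, the gene of the activin A subunit, showed another course in 1 of its 2 regions, with AUCs of 233, 357, 250 and 612, the 24 h value lying near that of solvent. PMEPA1, a TGFβ-induced feedback gene, had 2 regions with centred log2 ratios at 72 h of 0.94 and 0.97, and TGIF1, which encodes a SMAD corepressor, had 2 with 1.19 and 0.82. On the scale of AUC per base, a region each of SMAD3, TGIF1 and LTBP4 and both regions of PMEPA1 had a centred log2 ratio below 0. The list of TGFβ response genes had 9 selected of 59 regions (15.3%, median over the 59 of 0.21), in 3 of its 24 genes with a region. TGFBI had 5 of its 7 regions among the 9, so that the share of this list rested largely on that gene. Besides the 5 of TGFBI, the 9 included 2 of BHLHE40, which encodes a transcription factor. These 2 had AUCs of 1444, 3481, 3980 and 4074 and of 611, 983, 1261 and 1668, the latter with a centred log2 ratio per base of peak of -0.46.

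Extracellular matrix genes had the highest share of the 11 lists, 24 of 115 regions (20.9%), with a median centred log2 ratio over the 115 of 0.24. These 24 belonged to 16 genes, and 9 reached the threshold at 6 h, 6 at 24 h and 9 at 72 h alone. Each region counted for its assigned gene alone, so the region of CAMK1G, with starts of the listed gene LAMB3 in its window, is not among them. FN1, the fibronectin gene, had AUCs of 882, 2782, 3957 and 4268 at its TSS, where the TGACGTCA motif printed above lies. FBN1, the gene of the microfibril protein fibrillin-1, had 579, 1528, 2717 and 2588 at its TSS. Both were past the threshold at 6 h, with centred log2 ratios of 1.21 and 0.96, and had higher ones at 72 h, 2.03 and 1.91.

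FN1 had further regions inside the gene and near its start, with AUCs of 423, 763, 570 and 903 and of 258, 484, 557 and 621, whose centred log2 ratios per base of peak were -0.68 and -0.0033. Tenascin C (TNC) had 3 regions, with centred log2 ratios at 72 h of up to 1.403, and FBLN1, the fibulin-1 gene, had 3, with 0.77, 1.08 and 0.84. LAMA3, the laminin α3 chain gene, had 805, 1305, 1737 and 2414 at a TSS and 1638, 3461, 3656 and 3732 in the region of the SMAD motif printed above. The first LAMA3 region thus kept a step after 24 h.

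THBS1, the thrombospondin-1 gene, had AUCs of 306, 252, 501.2 and 748, so that its value at 6 h was below solvent. COL17A1, a collagen gene of hemidesmosomes, had 437, 1053, 1367 and 1377 in the stronger of 2 regions, and COL7A1, the gene of anchoring fibril collagen, had 628, 1272, 1422 and 1330. Further genes were LOXL2, HSPG2, COL16A1, P4HA3, VCAN, FBN2 and SPOCK1, each with 1 region and with centred log2 ratios at 72 h from 0.75 (LOXL2) to 1.28 (SPOCK1).

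Genes of the actin cytoskeleton and contraction had 20 selected of 155 regions (12.9%, median over the 155 of 0.10), in 13 genes. TAGLN, the gene of the smooth-muscle actin-binding protein transgelin, had AUCs of 1135, 2278, 3145 and 3104 upstream of its TSS. TPM1, a tropomyosin gene, had 350, 931, 1399 and 1262 at its TSS. ACTA2, the smooth-muscle α-actin gene, had 692, 1193, 1608 and 1511. In these 3 genes the 24 h value was the highest and the 72 h value was close to it.

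SEPTIN9, a septin gene, had the largest ratio of this list, a centred log2 ratio of 2.20, with AUCs of 220, 872, 1365 and 1199. LIMA1, which encodes an actin-bundling protein, had 1024, 1643, 1723 and 2806 at its TSS and 376, 1035, 1306 and 1169 in another region. The TSS region of LIMA1 reached the threshold at 72 h alone and the other at 6 h. MYLK, the myosin light chain kinase gene, and PALLD, the gene of the actin scaffold palladin, had 3 regions each, with centred log2 ratios at 72 h between 0.86 and 1.504. PDLIM7, a LIM-domain gene, had 4373, 9775, 10073 and 9477 in the region of the stretch printed above. The genes CDC42EP3, FSCN1, MYH9 and MYH10 had 1 region each, with centred log2 ratios from 0.77 to 1.01. Of this list, a region each of CDC42EP3, FSCN1 and PDLIM7 was below 0 after centring on the scale of AUC per base.

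**Figure D1:**
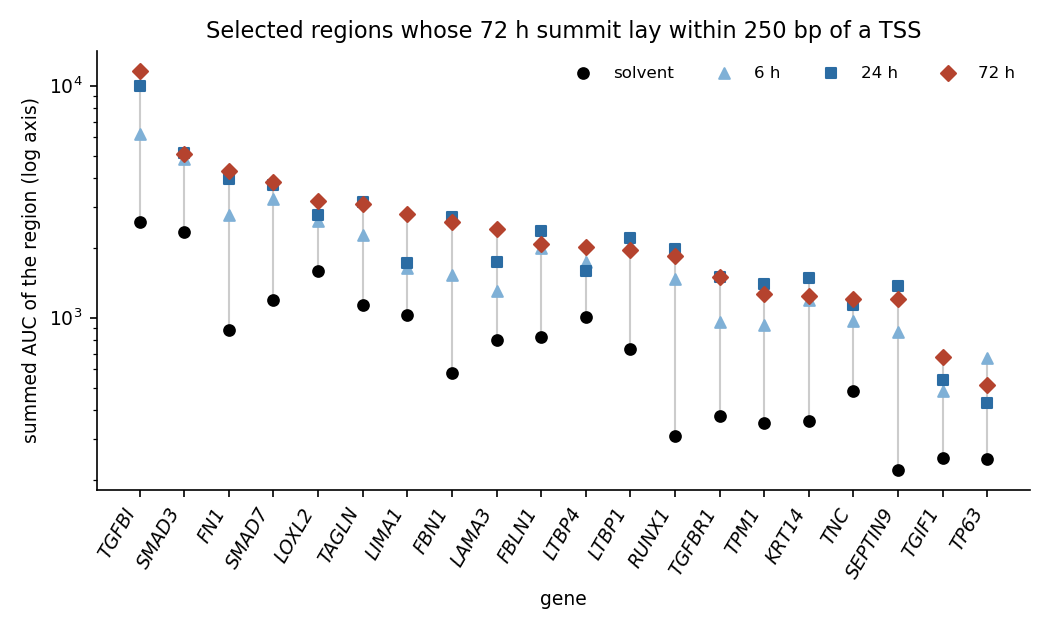
Summed AUC on a log axis (y axis) in solvent and after 6, 24 and 72 h of TGFβ1 (symbols) for the 20 genes of the fixed lists (x axis) that had a selected region with its 72 h summit within 250 bp of a TSS, 1 region a gene. In every gene the solvent point is the lowest, and the 72 h point is between 512 (TP63) and 11599 (TGFBI).

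The lists of regulators had fewer selected regions. Of EMT transcription factor genes, 2 of 45 regions (4.44%) were selected, those of RUNX1 and ETS1. RUNX1, a Runt-domain factor gene, had AUCs of 308, 1463, 1972 and 1837 at a TSS, a centred log2 ratio of 2.33, and ETS1 had 349, 854, 1064 and 1053. Of AP-1 and early response genes, 1 of 45 (2.22%) was selected, that of the AP-1 subunit gene FOSL1 with 408, 881, 976 and 987. The selected region assigned to FLOT1 is also within 3 kb of IER3, a gene of this list, but was not counted in it. The median centred log2 ratio over these lists was 0.09 and -0.11.

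Integrin genes had 2 of 43 selected (4.65%). ITGA5, the fibronectin receptor α5 subunit gene, had 797, 2408, 2577 and 2095, and ITGB4, the β4 subunit gene of hemidesmosomes, had 851, 3253, 4835 and 4305, although per base of peak its centred log2 ratio was -0.64. EGF receptor and ERK feedback genes had 3 of 54 (5.56%), those of the phosphatase genes DUSP4 and DUSP10 and of the signalling inhibitor gene SPRY4, the last with 1295, 2344, 3176 and 3198. Ribosomal protein genes had 1.98% of their regions selected, those of RPL41 and RPS4X, and replication-dependent histone genes had 2 of 67 (2.99%, H4C5 and H4C11). These shares lay below the 9.48% over all regions. The median solvent AUC was 2065 over the regions of the ribosomal list, 2150 over those of the histone list and 2806 over those of the AP-1 and early response list, beside 1262 over all regions, and its part in the low shares was not tested.

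Epithelial junction and identity genes had 10 selected of 102 regions (9.80%), near the share over all regions, with a median over the 102 of -0.08. KRT14, a basal keratin gene, had 3 of the 10, of which 1 was below 0 after centring per base of peak, and its TSS region had AUCs of 357, 1196, 1479 and 1242. TP63, a gene of a basal epithelial transcription factor, had 245, 672, 428 and 512, and CDH3, the P-cadherin gene, had 289, 1135, 1337 and 666. The values of TP63 at 24 and 72 h and of CDH3 at 72 h were below those of 6 h. KRT6A, TJP1, PKP1 and DSC3 followed, with centred log2 ratios at 72 h from 0.80 (PKP1) to 1.03 (DSC3).

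Other genes had several selected regions. TLN2, the gene of the integrin-linked protein talin-2, had 5 of 8, with centred log2 ratios at 72 h from 0.78 to 1.14, and in 1 of them the AUCs were 280, 1162, 1039 and 706, highest at 6 h. Per base of peak, the centred log2 ratio at 72 h was -0.33 in that region and -0.015 in another of TLN2. BMP1, a protease gene that acts on procollagens, had 4 of 8, with AUCs of 1690, 3538, 3720 and 3956 in the first and centred log2 ratios from 0.76 to 1.06. Another selected region lay within 50 kb of 29.2% of the selected regions, and at least 1 selected region lay within 50 kb of 21.4% of the others.

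The sequence around the solvent summit was then compared, which the rule did not use. Motifs were searched on both strands within 100 bp of the summit. The AP-1 motif was found in 1323 selected regions (43.7%, 41.9 to 45.5) and in 17.7% of the others (17.3 to 18.2). TEAD (GGAATG) was found in 18.98% and 10.9%, and RUNX (TGTGGTT) in 8.45% and 3.59%. The motifs of promoters of widely used genes went the other way. SP/KLF (GGGGCGG) was found in 4.13% and 23.0%, ETS (CCGGAAG) in 1.22% and 7.51%, NRF1 (CGCATGCG) in 0.132% and 1.19%, and YY1 (AAGATGGCG) in 0 of 3029 and 1.13%. For summits over 1000 bp from a TSS the gaps were smaller. There SP/KLF was found in 2.59% and 5.11%, ETS in 1.07% and 1.94%, NRF1 in 0% and 0.175%, and YY1 in 0% and 0.0876%.

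The SMAD pair, searched in its 2 spellings alone, was found in 39 selected regions (1.29%, 0.943 to 1.76) and in 0.698% of the others (0.608 to 0.801), and the CArG box of serum response factor in 1.09% (0.777 to 1.53) and 0.867% (0.767 to 0.981). The E-box of SNAIL and ZEB repressors (CACCTG) was found in 15.5% and 19.3%, NF-Y (CCAAT) in 21.0% and 24.9%, C/EBP (TTNNGCAA) in 10.0% and 8.49%, FOX (TGTTTAC) in 3.73% and 2.45%, and the motif TGACGTCA in 0.693% and 1.30%. These differences did not all hold within strata. C/EBP was higher in the selected regions at each distance up to 1000 bp, but beyond it was found in 10.8% and 13.0%. It was lower in each group by solvent AUC, with 10.7% and 11.4% in the lowest. Beyond 1000 bp, FOX was found in 3.55% and 3.60%. There TGACGTCA was found in 0.508% and 0.383%, and in the lowest AUC group in 0.665% and 0.510%, while other strata were mixed. Some CArG boxes can hold the letters of NF-Y. The letters of a motif not being in a window says nothing of the factor.

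As both position and solvent AUC differed between the sets, the AP-1 shares were compared within strata. For summits within 100 bp of a TSS, the motif was found in 31.8% of the selected regions and 6.81% of the others, from there to 500 bp in 42.0% and 15.1%, up to 1000 bp in 43.99% and 24.0%, and beyond in 46.5% and 30.2%. In the lowest of the 4 equal groups by solvent AUC it was found in 42.7% and 18.98%, and in the next ones in 45.8% and 24.0%, and 47.7% and 19.6%. The share of the selected regions was the higher one in each of these strata. In the highest group, only 15 regions were selected. Among distal constitutive regions, 48.7% of those past the threshold held the motif and 36.1% of the others.

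By course, the AP-1 motif was found in 40.5% of the regions that reached the threshold at 6 h (37.8 to 43.4), in 46.8% of those of 24 h (43.9 to 49.8) and in 43.9% of those of 72 h alone (40.4 to 47.4). Selected regions with the motif had median centred log2 ratios of 0.61, 0.96 and 1.09 at 6, 24 and 72 h, and those without it had 0.65, 0.98 and 1.10. Among all 31968 regions, those with the motif had medians of 0.13, 0.20 and 0.26 and those without it -0.02, -0.03 and -0.04.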

How the data were processed

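ATAC-seq was measured in 8 libraries of MCF10A cells. Per the study's methods and the submitters' processing notes, the authors used Trimmomatic 0.38 for trimming, Bowtie2 2.4.5 for mapping to GRCh38, SAMtools 1.4.1, Picard for duplicates, and Genrich 0.5, which called peaks over both replicates of a condition at an AUC of 200 or more. The deposited score of a peak is its AUC, which depends on depth and width and has no scaling across lists, and the deposited −log10 p is that at its summit. The condition of each list was read from its name. Peaks sharing 1 bp were merged, the AUC was summed per region and list, and log2 ratios were centred on their median over the constitutive regions within 3 kb of a GENCODE 44 TSS. A region's gene was the protein-coding gene with the TSS nearest the 72 h summit, within 3 kb of the region, or else the gene of the nearest TSS.

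Named were the 20 protein-coding genes with the largest ratio, the selected regions of genes on 11 lists, the 5 of largest solvent AUC, 3 on either side of the threshold and the 3 genes with most regions. The members and lists were chosen with earlier results of these data known. Some genes on these lists are not reported here. The procedures were run on simulated data with planted changes and motifs, as a check of the code alone. The simulated 72 h values had no smallest AUC and no peak widths. Python 3.11.15, pandas 2.3.3, scipy 1.17.1 and pysam 0.24.0 were used.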

Additional observations from a re-analysis of the deposited data

Results flagged for a closer look

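In 7 of the 3029 selected regions the AUC at 6 h was below that of solvent, although it was higher at 72 h. Among the other 28939 regions the AUC at 6 h was below solvent in 510, so that such values were not particular to the selected regions. The 7 belonged to THBS1, SPAG9, CCDC102B, ACAT2, CYP3A4, ENSG00000259181 and ENSG00000287125. The lowest ratio at 6 h was that of ACAT2, an enzyme gene of acetyl-CoA metabolism, with AUCs of 364, 206, 744 and 1031 (solvent, then 6, 24 and 72 h). All 7 had a solvent AUC under 400, near the smallest AUC in the lists, as did 51.9% of all selected regions. The difference between the times was not tested, and both ratios share the solvent list.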

How the results depend on the processing

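No paired analysis was possible because each list was called on both replicates together, and for the same reason no replicate could be left out. With the AUC of the strongest peak of each list, 3240 regions were selected, and the median ratios at 6 and 24 h and the AP-1 share stayed within the intervals of the reported values. Both medians stayed above 0 and the AP-1 share stayed above that of the other regions under every alternative tried. In each alternative the medians share the solvent list with the ratio that chose the regions, so their sign supports nothing on its own. With AUC per base of peak, 1246 regions were selected, with medians of 0.58 at 6 h and 0.86 at 24 h and an AP-1 share of 40.7%, and 91.2% of them were among the 3029. With −log10 p, 53 were selected, with 0.48, 0.73 and 39.6%. With peaks of an AUC of at least 400 only, the count was 1609 and the medians 0.60 and 0.89. TSSs of protein-coding genes gave 1959 regions and 41.6%, and a window of 1 kb gave 1627 and 40.3%. Centring on all constitutive regions gave a 6 h median of 0.66 over 2266 regions. Centring by bins, on the median of equal bins of regions by mean log2 AUC of both lists of a ratio, gave 0.59 and 0.92 over 2214. A threshold of 1 gave 1810 regions with 0.80 and 1.20, and one of 0.5 gave 5134 with 0.49, 0.74 and 41.6%. With solvent peaks as regions, the medians were 0.79 and 1.08 and the AP-1 share 35.3%. Over the whole merged region the AP-1 share was 52.4%, against 26.9% of the other regions.

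Of 128 named regions, the ratio at 72 h stayed past the threshold in 123 with the strongest peak and 93 with centring on all constitutive regions. It did so in 99 with centring by bins, 42 with AUC per base and 9 with −log10 p. Per base, the sign turned in 22 regions, and in those that are named their values were -0.72 (SMAD3), -0.46 (TGIF1), -0.72 (LTBP4), -0.56 and -0.55 (PMEPA1), -0.46 (BHLHE40), -0.13, -0.080, -1.02 and -1.04 (TGFBI), -0.68 and -0.0033 (FN1), -0.63 (CDC42EP3), -0.77 (PDLIM7), -0.58 (FSCN1), -0.64 (ITGB4), -0.36 (DUSP4), -0.67 (KRT14), -0.46 (FLOT1) and -0.015 and -0.33 (TLN2). With −log10 p, it turned in 5, namely PALLD (-0.054), FSCN1 (-0.083), DUSP4 (-0.010), KRT14 (-0.019) and EEF1DP5 (-0.0036). The lists hold no read totals, so that their depth could not be computed, and a region without a peak in solvent could not enter.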
